A study of Mus musculus with 2 samples.

Results

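This section describes where the transcription factor POU3F1 was found on chromatin around the semaphorin, plexin and neuropilin genes of the mouse retina at embryonic day 14. CUT&RUN is an assay in which an antibody directs a nuclease to a chromatin protein, so that the DNA around the protein is cut free and sequenced. Retina of wild-type (WT) CD1 mice gave 1 library with an antibody against POU3F1 and 1 library with rabbit IgG, an antibody with no target in chromatin. How many embryos were used is not stated in the labels. All values come from the peaks called in the POU3F1 library. No values of the IgG library were used here, and whether it served as the control in peak calling is not stated. There were no replicates, no other age and no mutant, so nothing below has a replicate check or a test. The genes were chosen by name as the 20 semaphorins, 9 plexins and 2 neuropilins, 31 in all. The peak list held 2652 peaks. The 31 genes were looked up in the authors' deposited table, in which GREAT assigned peaks to 2323 genes in 4427 pairs of gene and peak. Of the 31 genes, 7 (22.6%) had a row there, with 13 peaks, against 10.2% of all protein-coding genes.

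Semaphorins are guidance cues that steer growing axons, mostly by repulsion, and plexins are their transmembrane receptors. The secreted semaphorins of the Sema3 genes mostly act through neuropilins, which bind the ligand, joined to plexins of the A group, which carry the signal into the cell by acting on small GTPases such as R-Ras. Most membrane-bound semaphorins bind plexins directly. In the visual system, Sema6d with Plxna1 and the adhesion molecule Nrcam, and Vegfa with Nrp1, are known to help axons of retinal ganglion cells cross the midline at the optic chiasm, and Plxna2, Plxna4 and transmembrane semaphorins shape the layers of the inner retina. POU3F1 is a POU-domain factor, and factors of this class bind octamer-like DNA through a POU-specific domain and a homeodomain.

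POU3F1 peaks assigned to this family were close in enrichment to the peak list as a whole and lay far from the genes' start sites. The ligand genes Sema3a and Sema3e, the receptor genes Plxna2, Plxna4 and Plxnc1, and both co-receptor genes, Nrp1 and Nrp2, had an assigned peak. By role, this was 2 of 20 semaphorins, 3 of 9 plexins and 2 of 2 neuropilins. Over the family it was 7 of 31 genes (22.6%), against 10.2% of all 21900 protein-coding genes. Inside 50 kb of the transcription start site (TSS) lay no peak of the 31, while 3.67% of protein-coding genes had one there, and none lay inside 5 kb, where 1.4% did. Shares of 3.67% and 1.4% of 31 genes come to about 1 gene or less, so the absence of peaks close to the TSS is near the background. All 13 peaks lay over 50 kb from the TSS, as did 76.2% of all pairs. Their distances ran from 96.8 to 920.9 kb with a median of 396.8 kb, against a median of 160.8 kb over all pairs.

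**Figure D1:**
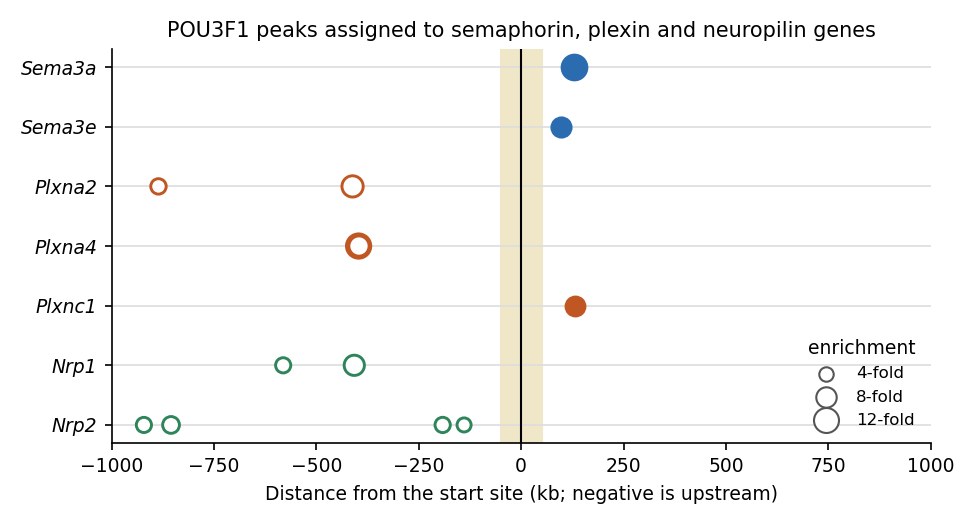
Each circle is a POU3F1 peak assigned to a gene of the family, at its distance from the TSS in kb along the direction of the gene (x axis; negative is upstream) for the 7 genes with a peak (rows; semaphorins blue, plexins orange, neuropilins green). The area of the circle is in proportion to the fold enrichment, filled circles lie inside the body of the gene, and the shaded band marks 50 kb on both sides, in which no peak falls. The 2 peaks of Plxna4 overlie each other.

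The promoters of the family carried no peak, which is near the background share. RefSeq gave 37 promoter windows (GRCm38.p6, from 250 bases before a start to 50 after it; some genes have several starts) for 26 of the 31 genes, and 0 of them overlapped a peak, against 0.679% of all 32851 windows. On either strand, the POU octamer ATGCAAAT was in 0 of the 37 windows, against 1.74% of all windows, again too rare for an absence in 37 windows to stand out. The first letters of the octamer, ATGCA, which its POU-specific part reads, were in 6 of the 37 (16.2%), against 32.6% of all windows, and the homeodomain core TAAT was in 16 (43.2%), against 58% of all. A match to so few letters is common and is not a binding site by itself. No window was given for Plxna4. Of the other 6 members with an assigned peak, Plxnc1 had ATGCA, and Plxna2, Nrp2, Sema3a and Sema3e had TAAT. Rras, which encodes a small GTPase inactivated by plexins, is no member but a partner of the pathway that did have a strong peak over its promoter, described below. The Rras window that overlaps this peak is shown as a contrast to the windows of the 2 plexins, because it holds 3 copies of ATGCTAAT. This is a form of the octamer with 1 letter changed, which contains TAAT and was looked for after this window was read. The summit of the peak lay upstream of the window. The other Rras windows overlapped no peak and held no ATGCA, TAAT or ATGCTAAT. The form ATGCTAAT was in 0 of the 37 windows of the family and in 0.919% of all windows. Capitals mark ATGCA, TAAT and ATGCTAAT on either strand, and each sequence runs 5′ to 3′ along the gene.

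Rras promoter, chr7:45017692-45017991, plus strand: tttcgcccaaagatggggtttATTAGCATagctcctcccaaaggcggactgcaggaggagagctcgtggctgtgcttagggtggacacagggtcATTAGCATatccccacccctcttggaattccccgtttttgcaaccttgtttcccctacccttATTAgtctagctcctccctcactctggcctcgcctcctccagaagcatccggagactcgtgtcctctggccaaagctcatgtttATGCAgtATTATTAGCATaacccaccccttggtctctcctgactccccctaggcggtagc

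Plxna2 promoter, chr1:194619579-194619878, plus strand: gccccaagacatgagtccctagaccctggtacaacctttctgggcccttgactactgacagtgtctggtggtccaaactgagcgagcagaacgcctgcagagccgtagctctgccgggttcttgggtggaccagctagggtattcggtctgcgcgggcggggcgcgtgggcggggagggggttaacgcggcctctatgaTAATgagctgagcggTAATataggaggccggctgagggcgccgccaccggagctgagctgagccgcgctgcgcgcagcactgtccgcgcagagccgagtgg

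Plxnc1 promoter, chr10:94944796-94945095, minus strand: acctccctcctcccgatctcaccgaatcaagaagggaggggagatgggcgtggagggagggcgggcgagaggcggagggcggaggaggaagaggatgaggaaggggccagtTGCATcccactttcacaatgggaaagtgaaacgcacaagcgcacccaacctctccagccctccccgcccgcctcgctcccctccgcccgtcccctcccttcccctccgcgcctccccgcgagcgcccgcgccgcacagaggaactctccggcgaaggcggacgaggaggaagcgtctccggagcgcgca

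In these windows the Rras promoter held 5 copies of TAAT, 3 of them inside ATGCTAAT, and 1 of ATGCA. The Plxna2 window held 2 copies of TAAT and no ATGCA, and the Plxnc1 window held 1 of ATGCA and no TAAT. The nearest peak lay 411.1 kb from the Plxna2 window and 130.7 kb from the Plxnc1 window. The sequence under the distant peaks themselves was not analysed here.

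The ligand genes with a peak both lie on chromosome 5, and in both the peak lay inside the gene. Sema3a, which encodes a secreted repellent that binds Nrp1, had its peak at 13529317 to 13529650, 130.2 kb downstream of the TSS. Its enrichment was 11.8-fold over the local background, the highest of the 13, with a summit pileup of 23 fragments (95% exact Poisson interval 14.6 to 34.5), and 86.3% of all peaks had a lower fold. Pileup is the number of fragments stacked at the summit, recovered from the deposited fold and p-value, and its interval covers counting error only. The fold has a small constant added to both pileup and local background, so it is lower than their plain ratio. The TSS implied by this distance, 13399309, lies 2525 bp from the start in the RefSeq window, so the deposited distance refers to a slightly different start. Sema3e, whose product binds Plxnd1 without a neuropilin, had its peak at 14121971 to 14122197, 96.8 kb downstream of the TSS (7.08-fold, 17 fragments). This was the closest to a TSS of the 13. The Sema3a peak was also assigned to Speer3 and the Sema3e peak to Pclo, a gene of the presynaptic active zone, but in each case the semaphorin had the nearer TSS.

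The receptor genes Plxna2 and Plxna4, whose products act with neuropilins and also bind Sema6 proteins, had their peaks far upstream. Plxna2 had 2 peaks on chromosome 1. The nearer, at 194208154 to 194208458, lay 411.5 kb upstream outside annotated genes, with 8.66-fold enrichment and 21 fragments. The farther, at 193734232 to 193734660, lay 885.4 kb upstream in the non-coding RNA gene Gm31870 and was 364.1 kb from Camk1g, to which both were also assigned. It had more fragments, 27, but a fold of only 4.56, because the local background was 5.14 fragments there against 1.54 at the nearer peak.

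Plxna4 had a pair of peaks 438 bp apart on chromosome 6, at 32983803 to 32984294 and 32984733 to 32985211. They lay 395.9 and 396.8 kb upstream of the TSS, and no other neighbouring peaks of a member were closer than 51977 bp to each other. Their enrichments were 7.86-fold (15 fragments) and 11.3-fold (24 fragments). Both lay inside Chchd3, a gene for a mitochondrial protein, 76.2 and 75.3 kb downstream of its TSS, so this gene and not Plxna4 had the nearer TSS. A further 3 peaks within 1 Mb of the Plxna4 body, with 3.93-, 11.8- and 6.39-fold enrichment, were assigned to Exoc4 and Lrguk.

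Plxnc1, which encodes the receptor of Sema7a, was the plexin with a peak inside its own body. This peak, at 94813788 to 94814083 on chromosome 10, lay 130.9 kb downstream of the TSS with 6.88-fold enrichment and 13 fragments. It was also assigned to Cep83, whose TSS was slightly nearer at 125.3 kb. In all, 3 of the 13 peaks lay inside the gene they were assigned to, those of Sema3a, Sema3e and Plxnc1, against 28% of all placed pairs.

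The neuropilin genes held 6 of the 13 peaks, all of them upstream, on the side of a gene for a Par3 polarity protein: Pard3 lies upstream of Nrp1 and Pard3b upstream of Nrp2, and each of the 6 was also assigned to that neighbour. Nrp1, the receptor of Sema3a and of Vegfa, had 2 peaks on chromosome 8. The nearer, at 127951783 to 127952130, lay 407.3 kb upstream with 7.86-fold enrichment and 15 fragments. The farther, at 127778202 to 127778494, lay 580.9 kb upstream with 4.42-fold enrichment and 8 fragments (95% exact Poisson interval 3.45 to 15.8). Both lay outside annotated genes and nearer to the TSS of Nrp1 than to that of Pard3.

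Nrp2, the main receptor of Sema3f, had 4 peaks on chromosome 1, the most of any member. All 4 lay inside Pard3b. The nearer pair was 139.3 kb upstream of the Nrp2 TSS (62564257 to 62564546, 3.80-fold) and 191.6 kb upstream (62511925 to 62512279, 4.48-fold). The farther pair was 854.7 kb upstream (61848808 to 61849179, 5.40-fold) and 920.9 kb upstream (61782678 to 61782886, 4.42-fold), at 210.2 and 144.0 kb from the TSS of Pard3b, which was the nearer. The peak at 139.3 kb had the most fragments of the 13, with 36 (95% exact Poisson interval 25.2 to 49.8), and the lowest fold, over a local background of 8.73 fragments. The other Nrp2 peaks had 15, 10 and 8 fragments in the order of increasing distance. No Nrp1 or Nrp2 peak reached 10-fold.

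Over the family, fold ranked the peaks differently from the number of fragments. The median fold of the 13 peaks was 6.88, with quartiles of 4.48 and 7.86, against 6.37 over all 2652 peaks, with quartiles of 4.91 and 8.84. The median summit pileup was 15 fragments, against 19 over the 2612 peaks with a recovered value, and 8 of the 13 peaks had under 20, against 51.4% of all. At 10-fold or more were 2 of the 13, those of Sema3a and Plxna4, against 18.7% of all peaks. In 7 of the 13 the local background was at 1.036 fragments, the most common value, which 30.1% of all peaks shared. Over this background the fold takes fixed steps with each fragment, so the nearer Nrp1 peak and a Plxna4 peak have the same fold, and likewise the farthest peaks of Nrp1 and Nrp2. With q-values of 4.56e-03, those 2 farthest peaks were also the weakest by the authors' q-value, and the other 11 had q-values of 6.31e-05 or lower; 92% of all peaks were under 0.001. The 7 genes kept a peak under q-value limits of 0.01 and of 0.001, beside 9.99% and 9.59% of protein-coding genes.

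**Figure D2:**
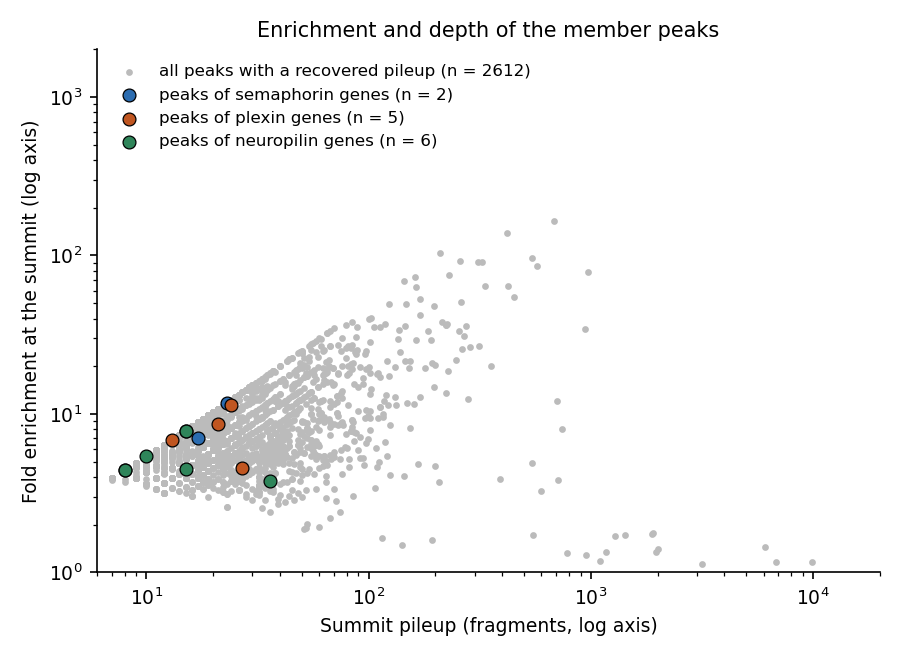
Fold enrichment at the summit (y axis, log scale) against summit pileup in fragments (x axis, log scale) for the 2612 peaks with a recovered pileup (grey) and the 13 peaks of the family (coloured by role). Points along the upper edge share the lowest local background. The peaks of the family lie between 8 and 36 fragments and between 3.80- and 11.8-fold, and 2 pairs of them overlie each other.

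Every one of the 13 peaks was assigned to a neighbouring gene as well, as were 70.4% of the 2505 peaks that could be placed. The member had the nearer TSS for 7 of the 13, on 5 genes (16.1% of the 31), Sema3a, Sema3e, Plxna2, Nrp1 and Nrp2, and the neighbour for 6. With each peak given to its nearest assigned TSS alone, 6.76% of protein-coding genes had a peak. Upstream of the member's TSS lay 10 of the 13, against 42.7% of all pairs. These 10 belong to 4 genes and share loci, so they are not 10 independent observations.

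The 24 members without a row had their nearest peak at 107.7 to 3382.1 kb from the gene body, with a median of 844.3 kb. Measured over all 31 genes, whatever the assignment, the median was 686.7 kb, against 627.2 kb for protein-coding genes. No member had a peak in its body other than Sema3a, Sema3e and Plxnc1, and 3.7% of protein-coding genes had one. Among plexins without a row, Plxnd1, the receptor of Sema3e, came closest, at 107.7 kb from a 5.39-fold peak assigned to Efcab12 and Mbd4. Plxna1, the receptor of Sema6d at the chiasm, was 1198.8 kb from its nearest peak, Plxnb2 686.7 kb and Plxnb1, the receptor of Sema4d, 797.1 kb. Plxna3 and Plxnb3 lie on chromosome X, which held 43 peaks in all, and were the farthest, at 3382.1 and 2810.4 kb.

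Among semaphorins without a row, the secreted ones lay at 325.1 kb (Sema3c) to 940.4 kb (Sema3d) from a peak. The nearest peak of Sema3d was the one inside Sema3a. Sema3b and Sema3f, which lie close together on chromosome 9, had the same nearest peak, assigned to Amt, as Plxnb1. The transmembrane Sema4 genes ranged from 325.6 kb (Sema4g, from a peak assigned to Pax2 and Hif1an) to 1602.9 kb (Sema4a). Sema5a and Sema5b, repellents of the inner retina, were 1843.3 and 795.7 kb away, Sema6a, Sema6b and Sema6c were 1886.0, 891.5 and 1046.9 kb away, and the membrane-anchored Sema7a 1615.1 kb. Of the 24, 14 had at least 1 peak within 1 Mb of the body, assigned to other genes. The median number of peaks within 1 Mb was 1 for these 24 genes and 1 for protein-coding genes, so such a peak is common among all genes.

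**Figure D3:**
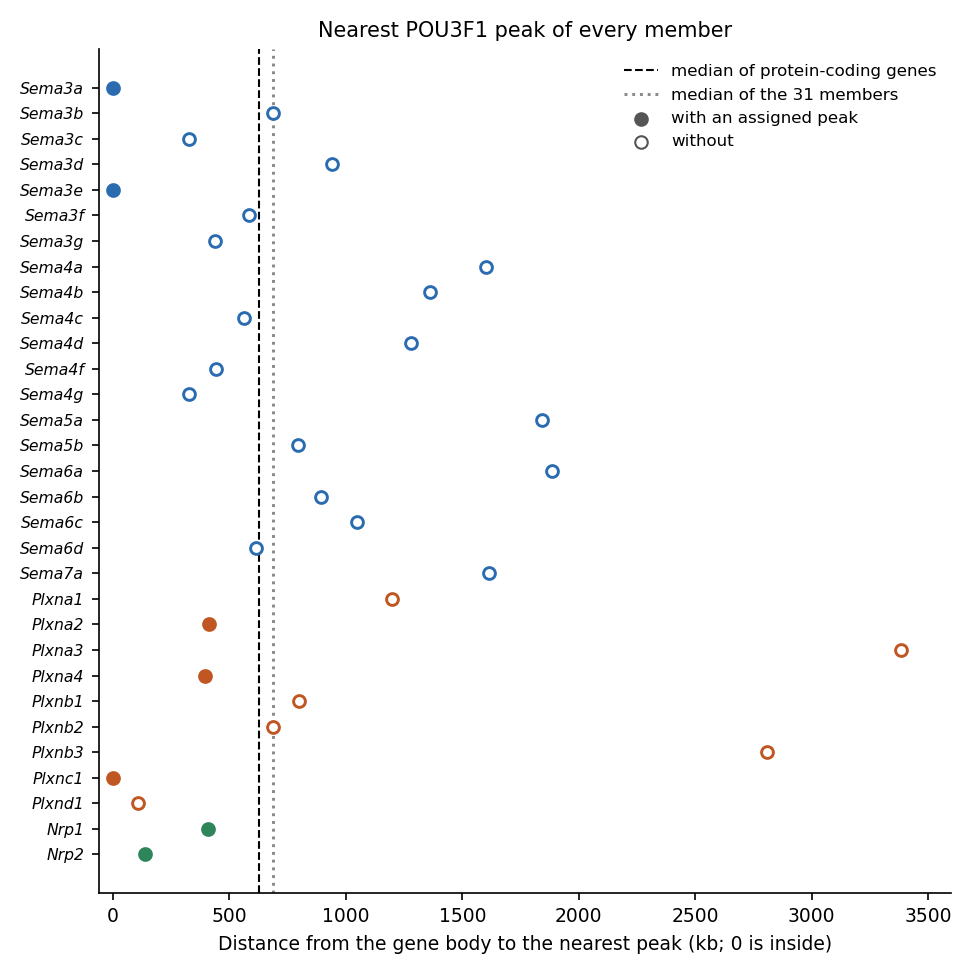
Distance in kb from the body of each of the 31 genes to its nearest POU3F1 peak (x axis; 0 means inside the body), whichever gene the peak was assigned to. Filled points are the 7 genes with an assigned peak and open points the 24 without, coloured by role (semaphorins blue, plexins orange, neuropilins green); the lines mark the medians of the 31 genes (686.7 kb) and of protein-coding genes (627.2 kb).

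Sema6d, the ligand that acts in midline crossing, had no row although 4 peaks lay upstream of it on chromosome 2 with no protein-coding gene body between them and Sema6d. The strongest, at 123274992 to 123275820, had 30.0-fold enrichment and 60 fragments, above 98.2% of all peaks and above all 13 peaks assigned to the family. The others had 11.8-fold (123473777 to 123474331, 47 fragments), 7.37-fold (123364323 to 123364780, 14 fragments) and 4.42-fold enrichment (123457391 to 123457800, 8 fragments). All 4 were assigned to Sqor, a gene of sulfide metabolism. RefSeq gives Sema6d 2 starts. From the upstream start, at 124089969, the 4 peaks lie 615.9 to 814.6 kb away, inside the 1 Mb reach of the assignment, while from the downstream start, at 124653581, they lie 1179.5 to 1378.2 kb away, outside it. GREAT uses a single TSS for each gene, and neither the labels nor the files say which start it used for Sema6d. The absence of Sema6d from the table therefore does not show that no peak lies in its surroundings.

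Members with an assigned peak had more space around them than most without one. Over all protein-coding genes, too, the share with a peak rose with that space. GREAT extends the reach of a gene through free space, up to 1 Mb, so a link between space and assigned peaks is built into the assignment. Territory is used here for the gene body plus the free space up to the next protein-coding gene body on both sides, at most 1000 kb on each. None of the 18 members with a territory under 300 kb had an assigned peak, against 5.86% of protein-coding genes with territories of that size. That share is low enough that 0 of 18 is near the background. Of the 13 members with larger territories 7 had one, against 34.5%. In finer classes this was 0 of 14 members under 100 kb (3.85% of protein-coding genes), 0 of 4 at 100 to 300 kb (11.3%), 4 of 8 members at 300 to 1000 kb (29.4% of protein-coding genes) and 3 of 5 over 1000 kb (47.7%). The median territory was 162.6 kb over the 31 genes and 67.3 kb over protein-coding genes. Whether this difference bears on the shares of 22.6% and 10.2% with an assigned peak was not tested. Counted by territory in place of the GREAT assignment, 6 of the 31 genes had a peak (Sema3a, Sema3e, Sema6d, Plxna2, Plxnc1 and Nrp1), against 8.98% of protein-coding genes.

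**Figure D4:**
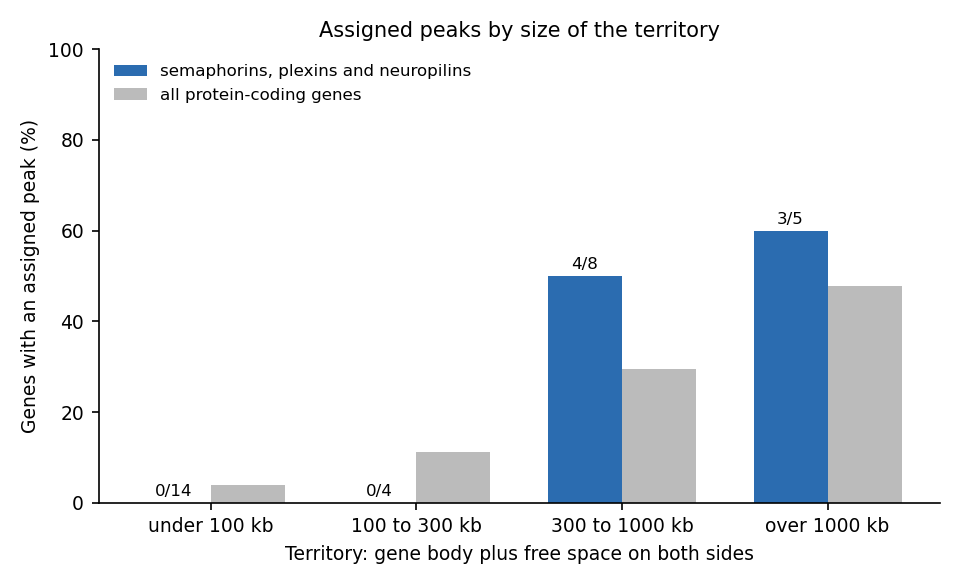
Percentage of genes with an assigned peak (y axis) by size of the territory (x axis), for the 31 semaphorin, plexin and neuropilin genes (blue, with the counts above) and for all protein-coding genes (grey). In both, the percentage is higher for larger territories, a link that is built into the assignment. No member with a territory under 300 kb has an assigned peak, which is near the background.

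Other genes of the pathway, 49 co-receptors, small GTPases, kinases and effectors listed from general knowledge, had an assigned peak in 11 cases (22.4%), against 10.2% of protein-coding genes. Unlike any member, 5 of the 49 had an assigned peak inside 50 kb of the TSS, beside 3.67% of protein-coding genes. Of these 5, 4 are described. Rras had the strongest, 90.8-fold with 323 fragments at 45017194 to 45018250 on chromosome 7, over the promoter shown above. Its middle lay 239 bp upstream of the TSS used for the assignment, and its summit 325 bp upstream of the slightly different start in the window. A second peak lay 1517 bp upstream (7.94-fold, 60 fragments), and both were also assigned to Scaf1, 1359 and 81 bp upstream of that gene. Dpysl2, which encodes a CRMP protein that relays Sema3a signals to microtubules, had a peak 189 bp upstream of an internal start (16.7-fold, 33 fragments), 27 bp from the TSS of Gm5464.

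Nrcam, the adhesion partner of Sema6d and Plxna1 at the chiasm, had a peak 9489 bp downstream of its TSS with 4.33-fold enrichment and 10 fragments, and Kdr, a receptor of Vegfa, a peak 25.9 kb downstream with 3.54-fold and 28 fragments. Each of the other partners described here had its assigned peaks over 50 kb from the TSS. Itga1, an integrin subunit gene, had 7 peaks, all shared with Isl1, a transcription factor gene of retinal ganglion cells, and at most 9.33-fold. Plxdc2 had 4 peaks, the nearest 67.8 kb from the TSS (5.89-fold), and Chl1, which encodes an adhesion molecule of Sema3 receptor complexes, had 3 (at most 7.35-fold). Tiam1 had 1 peak of 6.97-fold, and Plxdc1 1 of 4.72-fold that lay nearer to Fbxo47. Vegfa itself, Rac1, Fyn, Cdk5 and L1cam were among the 38 partners with no row. Rhoa was another of them, although a peak assigned to Amt lay 9.2 kb from its nearest promoter window.

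Set beside other guidance families, 6 of 14 Eph receptors, 4 of 7 Slit and Robo genes and 5 of 13 netrin ligands and receptors had an assigned peak, beside 7 of the 31 semaphorin, plexin and neuropilin genes and 10.2% of protein-coding genes. Within 50 kb of the TSS this was 3, 3 and 1 genes, beside 0 of the 31 and 3.67% of protein-coding genes, of which the 0 of 31 is near the background. Peaks of at least 10-fold were assigned to 4, 3 and 1 genes of those families, beside 2 of the 31, where 2.78% of protein-coding genes had one. The lists differ in size and in the length of their loci, and these differences were not tested.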

How the data were processed

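Per the labels' protocols, CUT&RUN DNA of 1 POU3F1 and 1 rabbit IgG library was ligated to adapters, amplified, size-selected and sequenced in pairs. The submitters' processing notes name Bowtie2, MACS2, deepTools and mm10, without versions. The authors deposited a list of peaks at a q-value limit of 0.05, with a fold (ratio) at the summit over the local background, the −log10 of the p-value and q-value, and a score. Per the file headers, genes were assigned by GREAT 4.0.4 on mm10, with basal domains of 5000 bp upstream and 1000 bp downstream extended up to 1000000 bp. Whether a control library entered the peak calling is not given in the sources used here.

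From these files, distances were placed on peak midpoints with the RefSeq genes and starts of GRCm38.p6, the assembly of mm10 (all 13 pairs of the members, 96.9% of all). Coordinates are counted from 1. The deposited fold was read as the pileup plus 1 over the local background plus 1, which is lower than their plain ratio. A whole-number summit pileup was accepted where it gave the deposited −log10 p-value within 0.001 (98.5% of peaks). On 1000 simulated peaks the pileup was recovered in 100%, with 0.4% of altered p-values accepted, and 100% of 1208 simulated pairs were placed on the right peak. Overlap means at least 1 bp. Library depth is unknown. The members, the partner list and the comparison lists were chosen with earlier results of these data known, so counts are given beside the share over all features and without a test. All members are counted, some of those without a row only within a range of distances, and all peaks assigned to members are described. Of the 11 partners with an assigned peak, 9 are named. The results of the other 2, of which 1 has a peak of at least 10-fold within 50 kb, are not reported here. Calculations used Python 3.11.15, NumPy 2.4.6, pandas 2.3.3 and SciPy 1.17.1.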

Additional observations from a re-analysis of the deposited data

How the results depend on the processing

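At q-values under 0.01 the family kept 7 genes and 13 peaks, and under 0.001 it kept 7 genes and 11 peaks. The settings tried for the median fold of 6.88 keep the same 13 peaks and so could not change it. The count of 3 peaks inside their own gene was 3 by peak midpoints too. Counting peaks of at least 10-fold alone left 2 genes with 2 peaks, 3 partners and 8 genes of the Eph, Slit, Robo and netrin families, against 11 partners and 15 such genes as deposited. Within 50 kb of the TSS the counts were 0 genes and 0 peaks, 5 partners and 7 genes of the other families, and within 5 kb they were 0, 0, 2 and 3. Counting each peak only for its nearest assigned TSS left 5 genes with 7 peaks, 9 partners and 12 genes of the other families. An alternative chosen after seeing the data, which counted peaks in the territory of each gene in place of the GREAT assignment, gave 6 genes with 11 peaks: it lost the peaks of Plxna4 and Nrp2, which lie inside other genes, and added the 4 upstream of Sema6d. No paired analysis was possible because each antibody had 1 library, and for the same reason no library could be left out. Pileups of 8 to 36 fragments limit how well the fold of any of these peaks is known.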

Other observations

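Over all RefSeq promoter windows, those that overlapped a POU3F1 peak more often held the octamer. It was in 47 of 223 such windows (21.1%), against 523 of 32628 windows without a peak (1.6%). The variant ATGCTAAT, looked for after the Rras window was read, was in 22 (9.87%) and in 280 (0.858%). The 22 include the Rras window, from which the variant was taken. The shorter cores differed less: ATGCA was in 47.1% of windows with a peak and in 32.5% of those without, and TAAT in 70.4% and 57.9%. Windows of alternative starts of the same gene overlap or neighbour each other and were counted singly, and no test was made.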
